A study of Homo sapiens with 94 samples.

Results

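HIF1A, FAHD1, PROSER2, TERF2IP, STAMBPL1, NARFL and HDDC2 are 7 human genes over which antisense RNA, transcribed from the strand opposite the gene's own, was among the most increased of at least 1 deposited comparison. The set was chosen from these antisense values, so their sizes are given below as a description, without a test. The 7 symbols were matched by name in all 10 antisense tables, which hold 18301 genes each, and in the 10 sense tables of the same comparisons. All 7 had a row in each table.

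Antisense transcripts can start at a promoter inside a gene, at a divergent promoter near its start, or in a neighbouring gene on the opposite strand that is read into it. DNA methylation in gene bodies is known for keeping such internal start sites silent, and TET enzymes oxidise 5-methylcytosine to 5-hydroxymethylcytosine, a first step of demethylation. HIF1A encodes the oxygen-regulated subunit of the transcription factor HIF-1, and HIF1A antisense RNAs are annotated lncRNAs. FAHD1 is a mitochondrial oxaloacetate decarboxylase, and TERF2IP (RAP1) is a telomere-bound partner of TRF2 in shelterin. STAMBPL1 is a deubiquitinase of the AMSH family, and NARFL (now CIAO3) acts in cytosolic iron-sulfur protein assembly. HDDC2 encodes an HD domain protein, and PROSER2 a proline- and serine-rich protein.

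Total RNA had been sequenced from T-Rex Flp-in derivatives of HEK293, an embryonic kidney line, and U2OS, an osteosarcoma line, which hold an integrated construct that doxycycline induces. All cells carried the construct TET-CD-GFP, a GFP fusion of a TET enzyme's catalytic domain, except for a HEK293 line with its mutant form TETMut-CD-GFP. The groups were U2OS with 5-aza-2'-deoxycytidine (Aza, an inhibitor of DNA methyltransferases; 55 nM, 48 h), U2OS with doxycycline (1 µg/mL, 48 h) and untreated U2OS; HEK293 with Aza (880 nM, 48 h), with 4-thio-2'-deoxythymidine (thio; 25 µM, 48 h) and UVA light (365 nm, 10 kJ/m2 every 8 h, 4 times), with UVA alone, with thio alone, and untreated; and TET-CD and TETMut-CD HEK293 with doxycycline (1 µg/mL, 48 h), each with its own untreated group. A separate HEK293 experiment compared the methyl-binding protein knockout lines MeBP_TKO G16 and G37 and their parental line, each with Aza (880 nM, 48 h), with doxycycline (1 µg/mL, 48 h) and untreated. Each group had 3 libraries. The labels contradict each other in that experiment: the parental libraries are titled TET_WT but carry the genotype TETMut-CD-GFP, 1 parental doxycycline library also carries the tag MeBP_TKO, and 1 G37 doxycycline library lacks it. The knocked-out genes are not named in the labels, and whether a line is 1 clone is not stated there. Nothing says that the replicates were separate cultures, so the spread behind each standard error may be technical.

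The tables hold comparisons and no value per library, so neither single libraries nor depth can be shown. Every fold change below is a log2 value with its standard error from the authors' deposited tables, and these values are shrunken toward 0. The shrinkage also narrows the errors, strongly so with doxycycline in HEK293 and with thio alone. A value near 0 with a small error there does not measure an absence of change. A level is the mean normalized count over all libraries of an experiment, per gene and not per length. In the authors' deposited tables the median gene stood at 9.23 antisense in U2OS, 6.99 in the HEK293 Aza and light experiment and 6.71 in the HEK293 construct experiment. The construct gene TET1 was 3.52 ± 0.03 higher with doxycycline in U2OS, 2.34 ± 0.03 in TET-CD HEK293 and 1.98 ± 0.03 in TETMut-CD HEK293, per the authors' deposited tables. The cell lines were checked against marker lists: of 6 U2OS markers, CD44, COL5A1 and RUNX2 stood above the median gene in U2OS and well above their HEK293 level, CAV1 and LOX were alike in both, and TWIST1 went the other way (level 3.89 in U2OS and 406 in HEK293). Of the HEK293 markers, LIN28B, INA and PAX2 were higher in HEK293, while NEFM was near 0 in both and NEFL had no row; all these levels come from separately normalized authors' deposited tables. In a bulk sample, more cells with a transcript and more transcript per cell cannot be told apart.

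Promoters of some annotated opposite-strand genes are shown because the deposited values do not say where within a gene its antisense reads lie. RefSeq places HIF1A-AS1, HIF1A-AS2 and HIF1A-AS3 on the minus strand over the plus-strand gene HIF1A, and PROSER2-AS1 over PROSER2. ACTA2 (smooth muscle actin) lies next to STAMBPL1 on the opposite strand, TPD52L1 (a tumour protein D52 family member) next to HDDC2, HAGHL (a hydroxyacylglutathione hydrolase-like gene) next to NARFL, and KARS (lysyl-tRNA synthetase, KARS1 in RefSeq) next to TERF2IP at its start. MEIOB, a meiosis gene, overlaps FAHD1. KARS lies on the minus strand at lower coordinates than plus-strand TERF2IP, and so is read away from it. CPHXL2, a minus-strand protein-coding gene, lies at higher coordinates than TERF2IP. RefSeq also places LOC124902551, a minus-strand protein-coding gene, over STAMBPL1, and LOC124901395, a plus-strand lncRNA, over HDDC2. The windows of these last genes are not shown. The strands of MEIOB, HAGHL, MSLN and HDDC2 are not in the sequence table used here and are given from general knowledge. By the same annotation HAGH (hydroxyacylglutathione hydrolase) is a further opposite-strand neighbour of FAHD1 within 20 kb, and METRN (a secreted neurotrophic factor), FAM173A (a lysine methyltransferase, ANTKMT in RefSeq) and MSLN (mesothelin) of NARFL. HAGH, at lower coordinates than plus-strand FAHD1, and MSLN, at higher coordinates than minus-strand NARFL, are also read away from these genes. Each 300-base window below spans a RefSeq start (GRCh38.p14), 5′ to 3′ on the gene's strand, with CG dinucleotides, the sites of cytosine methylation, in capitals.
HIF1A-AS2 (chr14:61749040-61749339, minus strand): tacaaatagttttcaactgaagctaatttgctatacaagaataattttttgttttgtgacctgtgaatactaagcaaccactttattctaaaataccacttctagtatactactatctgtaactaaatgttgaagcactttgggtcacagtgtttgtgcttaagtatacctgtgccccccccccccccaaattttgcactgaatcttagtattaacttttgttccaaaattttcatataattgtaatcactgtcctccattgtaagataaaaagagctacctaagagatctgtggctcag
HIF1A-AS3 (chr14:61751048-61751347, minus strand): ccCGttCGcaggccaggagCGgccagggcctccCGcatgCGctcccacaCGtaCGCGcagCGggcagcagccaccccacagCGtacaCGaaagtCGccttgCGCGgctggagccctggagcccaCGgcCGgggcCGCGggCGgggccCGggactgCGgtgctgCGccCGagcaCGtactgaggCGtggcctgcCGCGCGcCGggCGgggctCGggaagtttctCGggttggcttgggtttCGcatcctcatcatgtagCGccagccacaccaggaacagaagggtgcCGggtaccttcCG
PROSER2-AS1 (chr10:11894661-11894960, minus strand): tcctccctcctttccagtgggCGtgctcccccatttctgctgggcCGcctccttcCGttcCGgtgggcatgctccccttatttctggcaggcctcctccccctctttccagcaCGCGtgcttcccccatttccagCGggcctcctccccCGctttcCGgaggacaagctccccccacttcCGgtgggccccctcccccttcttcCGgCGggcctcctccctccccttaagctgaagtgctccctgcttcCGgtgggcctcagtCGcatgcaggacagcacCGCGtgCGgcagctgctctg
ACTA2 (chr10:88952724-88953023, minus strand): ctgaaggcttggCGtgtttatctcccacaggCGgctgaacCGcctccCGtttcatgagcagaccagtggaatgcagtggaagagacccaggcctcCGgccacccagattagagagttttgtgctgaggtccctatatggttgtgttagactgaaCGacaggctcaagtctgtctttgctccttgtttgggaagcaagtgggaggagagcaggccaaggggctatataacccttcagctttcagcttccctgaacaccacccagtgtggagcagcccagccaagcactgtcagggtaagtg
ACTA2 (chr10:88991288-88991587, minus strand): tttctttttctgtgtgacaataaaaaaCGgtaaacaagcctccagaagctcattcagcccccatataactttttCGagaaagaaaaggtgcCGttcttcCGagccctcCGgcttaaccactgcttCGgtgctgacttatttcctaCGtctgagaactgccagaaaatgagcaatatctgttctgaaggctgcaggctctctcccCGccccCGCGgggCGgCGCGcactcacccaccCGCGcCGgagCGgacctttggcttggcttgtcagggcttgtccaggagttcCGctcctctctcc
TPD52L1 (chr6:125153996-125154295, plus strand): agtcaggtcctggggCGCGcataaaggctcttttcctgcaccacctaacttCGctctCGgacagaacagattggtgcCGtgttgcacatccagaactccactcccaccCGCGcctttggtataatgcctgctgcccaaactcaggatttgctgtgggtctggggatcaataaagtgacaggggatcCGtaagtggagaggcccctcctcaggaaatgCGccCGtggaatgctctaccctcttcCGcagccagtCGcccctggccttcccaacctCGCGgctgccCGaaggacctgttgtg
The HIF1A-AS3 window held 36 CG dinucleotides, and 12.7% of 35116 RefSeq promoter windows of this length held at least as many. The HIF1A-AS2 window held 0, and that of HIF1A-AS1, which is not printed, held 30 (22.4% of windows held as many). Which of these starts the antisense reads over HIF1A use is not given. PROSER2-AS1 had 17 (46.0% of windows held as many), the ACTA2 start with lower coordinates 6 (66.3%), its other start 18 (44.5%) and TPD52L1 15 (48.9%), beside a median of 14 over all windows. The CPHXL2 window, which is not printed, held 2 (89.0% of windows held as many). The dinucleotide reads the same on both strands. These counts describe sequence only, and the methylation of these windows was not analysed here. HIF1A-AS1, HIF1A-AS2, HIF1A-AS3 and PROSER2-AS1 have no row of their own in the tables read here, so the antisense rows of HIF1A and PROSER2 are the values that exist for those strands.

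Antisense RNA over HIF1A was higher by 3.71 ± 0.19 with Aza and by 2.50 ± 0.19 with doxycycline in U2OS, 13.1-fold and 5.65-fold, in the authors' deposited tables, whose mean level for it was 217. By fold change it stood first among the 4736 genes with an adjusted p in the Aza table and first among 5428 in the doxycycline table, both being authors' deposited tables. The group levels implied by the mean level and the 2 fold changes were 432 with Aza, 187 with doxycycline and 33.0 untreated. In the HEK293 Aza and light experiment, normalized separately, its implied untreated level was 25.7. The same antisense row had a mean level of 26.2 in the HEK293 Aza and light experiment and 20.6 in the construct experiment of the authors' deposited tables. There it changed by 0.10 ± 0.17 with Aza, 0.00 ± 0.03 with doxycycline in TET-CD cells and -0.00 ± 0.04 in TETMut-CD cells, per the authors' deposited tables. The small errors with doxycycline come with the shrinkage, so these 2 values carry no size. The Aza doses of the lines differ, so no comparison between them is made.

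FAHD1 antisense was higher by 2.39 ± 0.23 with Aza and 2.38 ± 0.23 with doxycycline in U2OS in the authors' deposited tables, at a mean level of 110. Its implied levels were 151, 150 and 28.8 in Aza, doxycycline and untreated cells. PROSER2 antisense was higher by 1.79 ± 0.19 and 1.52 ± 0.20 with the same agents in the authors' deposited tables, at a mean level of 128, with implied levels of 182, 151 and 52.5. TERF2IP ran the other way round between the agents: 1.15 ± 0.12 with Aza and 1.88 ± 0.12 with doxycycline in the authors' deposited tables, at a mean level of 485, with implied levels of 468, 775 and 211. Both U2OS comparisons share the untreated libraries, so the agents' values are set side by side and their difference was not tested. Ranks by fold change were 4 for FAHD1, 8 for PROSER2 and 26 for TERF2IP with Aza, and 2, 10 and 5 with doxycycline, in the authors' deposited tables.

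STAMBPL1, NARFL and HDDC2 stood apart from those 4 genes in U2OS. Their antisense RNA was already present there, at mean levels of 597, 159 and 584, and lay between -0.04 and 0.03 on log2 with either agent in the authors' deposited tables. Of the 7 genes, 4 had a deposited adjusted p below 0.05 and a higher antisense value with Aza in U2OS, in a table where 3.34% of genes were called higher, and 4 with doxycycline, against 1.6%; nothing is read from these counts, since the same values chose the genes.

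**Figure D1:**
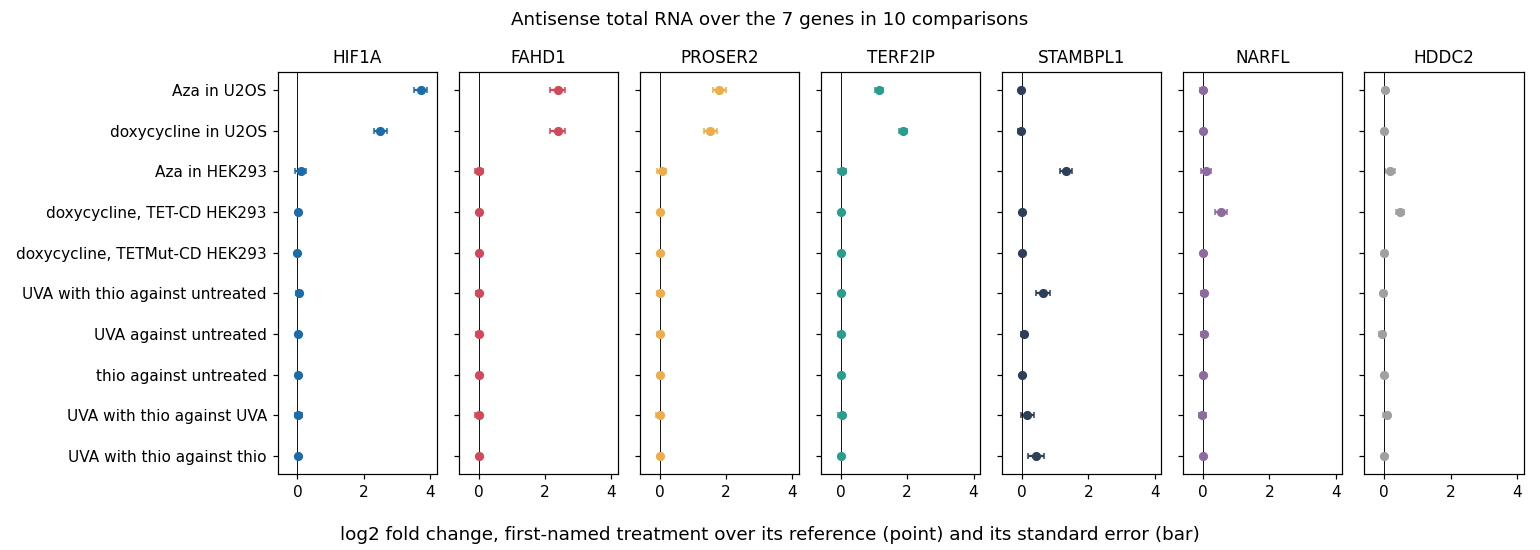
Antisense log2 fold change (horizontal axis; point, with its standard error as a bar) of each of the 7 genes in the 10 comparisons, one per line. HIF1A reaches 3.71 with Aza in U2OS, FAHD1, PROSER2 and TERF2IP lie above 1 in both U2OS comparisons, STAMBPL1 stands out with Aza in HEK293, and NARFL and HDDC2 with doxycycline in TET-CD HEK293.

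In HEK293 with Aza, STAMBPL1 antisense was higher by 1.32 ± 0.19 in the authors' deposited table, the highest fold change of 3671 genes with an adjusted p, at a mean level of 165. It was also higher by 0.63 ± 0.21 with UVA and thio together over untreated cells, against 0.05 ± 0.09 with UVA alone and 0.01 ± 0.04 with thio alone, in the authors' deposited tables. Set against the single agents, UVA with thio gave 0.16 ± 0.20 over UVA and 0.41 ± 0.24 over thio in the authors' deposited tables. The implied levels were 291 with Aza, 180 with UVA and thio, 120 with UVA, 117 with thio and 116 untreated. They rest on the fold changes over untreated cells, each shrunken on its own. The direct values of 0.16 over UVA and 0.41 over thio are smaller than these levels imply. These comparisons share libraries, and the differences between them were not tested. HIF1A, FAHD1, PROSER2 and TERF2IP antisense lay between -0.00 and 0.10 in every comparison of that experiment in the authors' deposited tables, at mean levels of 26.2, 2.61, 5.61 and 11.8. Among the 7 genes, 1 was called higher with Aza in HEK293 (0.817% of all genes) and 1 with UVA and thio (0.354%), again a description, per the authors' deposited tables. The call with UVA and thio is that of STAMBPL1, whose adjusted p of 0.017 in the authors' deposited table became 0.079 when adjusted over all genes with no filter on level.

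With doxycycline in TET-CD HEK293, NARFL antisense was higher by 0.53 ± 0.18 (mean level 119) and HDDC2 antisense by 0.47 ± 0.12 (mean level 434) in the authors' deposited table, at ranks 4 and 5 of 3296 genes with an adjusted p. The other 5 genes lay within 0.01 of 0 there. In TETMut-CD HEK293 all 7 genes lay between -0.00 and 0.01, with standard errors of about 0.04, in the authors' deposited table. These small errors come with the shrinkage, so the 7 values carry no size and do not measure an absence of change. The same holds for the 5 genes near 0 in TET-CD HEK293. With Aza in HEK293, HDDC2 stood at 0.16 ± 0.15 and NARFL at 0.09 ± 0.14 in the authors' deposited table. In TET-CD HEK293, 2 of the 7 were called higher, in a table with 0.152% of genes called higher, and in TETMut-CD HEK293 0 of 7, with 0% of genes called higher; the contrast between the constructs was not tested here. HDDC2 kept its call when the p-values were adjusted over all genes with no filter on level (0.0016 in the authors' deposited table, 0.0086 with no filter), while NARFL lost it (0.045 in the authors' deposited table, 0.22 with no filter).

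**Figure D2:**
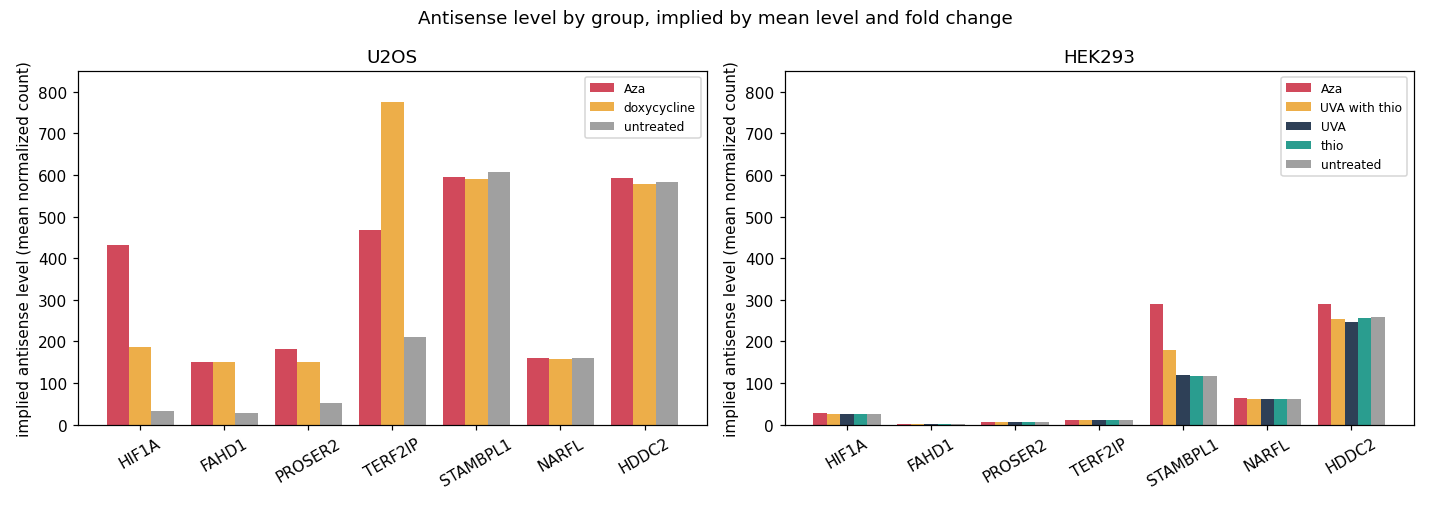
Antisense level by group (vertical axis, mean normalized count implied by the mean level and the shrunken fold changes) in U2OS on the left and in the HEK293 Aza and light experiment on the right, 1 bar per group. Among the U2OS groups, HIF1A, FAHD1, PROSER2 and TERF2IP are lowest in untreated cells (33.0 for HIF1A). In the HEK293 groups these genes lie between 2.60 and 27.5. STAMBPL1 varies between 116 and 291 in HEK293 and little in U2OS. The 2 experiments were normalized separately.

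The sense RNA of the same genes lay between -0.26 and 0.19 on log2 in the same comparisons of the authors' deposited tables. In U2OS with Aza, HIF1A sense RNA stood at -0.05 ± 0.03 in the authors' deposited table, beside its antisense value of 3.71. Its antisense level amounted to an implied 1.47% of its sense level with Aza, 0.629% with doxycycline and 0.109% in untreated cells, and remained a small fraction of it. FAHD1 sense stood at -0.09 ± 0.04 and TERF2IP sense at 0.14 ± 0.05, while PROSER2 sense was lower, at -0.26 ± 0.06, in the authors' deposited table for Aza in U2OS. The antisense share of the sense level there, implied from separately normalized antisense and sense tables, was 6.17% for FAHD1, 13.1% for PROSER2 and 16.3% for TERF2IP with Aza, against 1.11%, 3.15% and 8.10% in untreated cells. With doxycycline the shares were 5.70%, 9.34% and 28.8%, the last being the highest of the 7 genes in that group. With Aza in U2OS, STAMBPL1 sense stood at 0.17 ± 0.04, NARFL sense at -0.20 ± 0.05 and HDDC2 sense at 0.11 ± 0.04 in the authors' deposited table. With doxycycline in U2OS the sense values of all 7 genes lay between -0.07 and 0.05 in the authors' deposited table.

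STAMBPL1 sense stood at -0.08 ± 0.06 with Aza in HEK293 in the authors' deposited table, beside its antisense value of 1.32, and the implied antisense share was 22.6% with Aza and 8.55% untreated. In UVA with thio its sense RNA stood at 0.16 ± 0.06, and in UVA alone at 0.13 ± 0.06, in the authors' deposited tables. NARFL and HDDC2 sense stood at -0.03 ± 0.04 and -0.00 ± 0.02 with doxycycline in TET-CD HEK293 in the authors' deposited table. FAHD1 had the lowest sense value in HEK293 with Aza, -0.26 ± 0.08 in the authors' deposited table, with antisense at 0.01 ± 0.12. Sense and antisense values come from the same libraries as the choice of the genes, and no test is given.

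Sense RNA of 9 opposite-strand neighbours was set beside these values, 5 from the list and 4 added by annotation. CPHXL2, LOC124902551 and LOC124901395 are not among these 9. MEIOB had its highest sense values in U2OS, as FAHD1 antisense had. ACTA2 had its highest with Aza in HEK293, as STAMBPL1 antisense had, and TPD52L1 and HAGHL had theirs in TET-CD HEK293, as HDDC2 and NARFL antisense had. MEIOB, which overlaps FAHD1, was higher by 2.25 ± 0.14 with Aza and by 2.29 ± 0.14 with doxycycline in U2OS, at a mean level of 298, in the authors' deposited tables. FAHD1 antisense had 2.39 and 2.38 there. In the HEK293 Aza and light experiment MEIOB had a mean level of 2.88 in the authors' deposited tables, as FAHD1 antisense had 2.61. MEIOB's own antisense row, at a mean level of 196 in U2OS beside 2557 for FAHD1 sense, stood at -0.10 ± 0.12 with Aza and -0.08 ± 0.12 with doxycycline in U2OS in the authors' deposited tables.

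ACTA2 sense was higher by 1.28 ± 0.14 with Aza in HEK293, by 0.56 ± 0.15 with UVA and thio and by 0.08 ± 0.11 with UVA alone in the authors' deposited tables, beside 1.32, 0.63 and 0.05 for STAMBPL1 antisense. In U2OS, where STAMBPL1 antisense stood at -0.03 with Aza, ACTA2 sense stood at -0.01 ± 0.06 in the authors' deposited table. TPD52L1 sense was higher by 0.40 ± 0.10 with doxycycline in TET-CD HEK293 and by 0.36 ± 0.11 with Aza in HEK293, and stood at -0.00 ± 0.02 in TETMut-CD cells, in the authors' deposited tables. HDDC2 antisense had 0.47, 0.16 and 0.01 in these. HAGHL sense stood at 0.30 ± 0.10 in TET-CD HEK293 and at 0.01 ± 0.02 in TETMut-CD HEK293 in the authors' deposited tables, where NARFL antisense had 0.53 and 0.01. The other neighbours of NARFL did not share this value: METRN stood at 0.01 ± 0.03 and FAM173A at 0.02 ± 0.04 in TET-CD HEK293, and MSLN had a mean level of 1.32, in the authors' deposited table. In TETMut-CD HEK293 the values of TPD52L1, HAGHL, HDDC2 and NARFL are strongly shrunken and carry no size. HAGH stood at -0.01 ± 0.05 with Aza and -0.02 ± 0.05 with doxycycline in U2OS in the authors' deposited tables, beside MEIOB at 2.25 and 2.29. KARS sense RNA stood at 0.07 ± 0.03 with Aza and 0.09 ± 0.03 with doxycycline in U2OS in the authors' deposited tables. TERF2IP antisense had 1.15 and 1.88 there, and CPHXL2, on the other side of TERF2IP, has no value here. Whether the same RNA molecules lie under a gene's antisense row and its neighbour's sense row was not tested, since the tables give no positions.

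**Figure D3:**
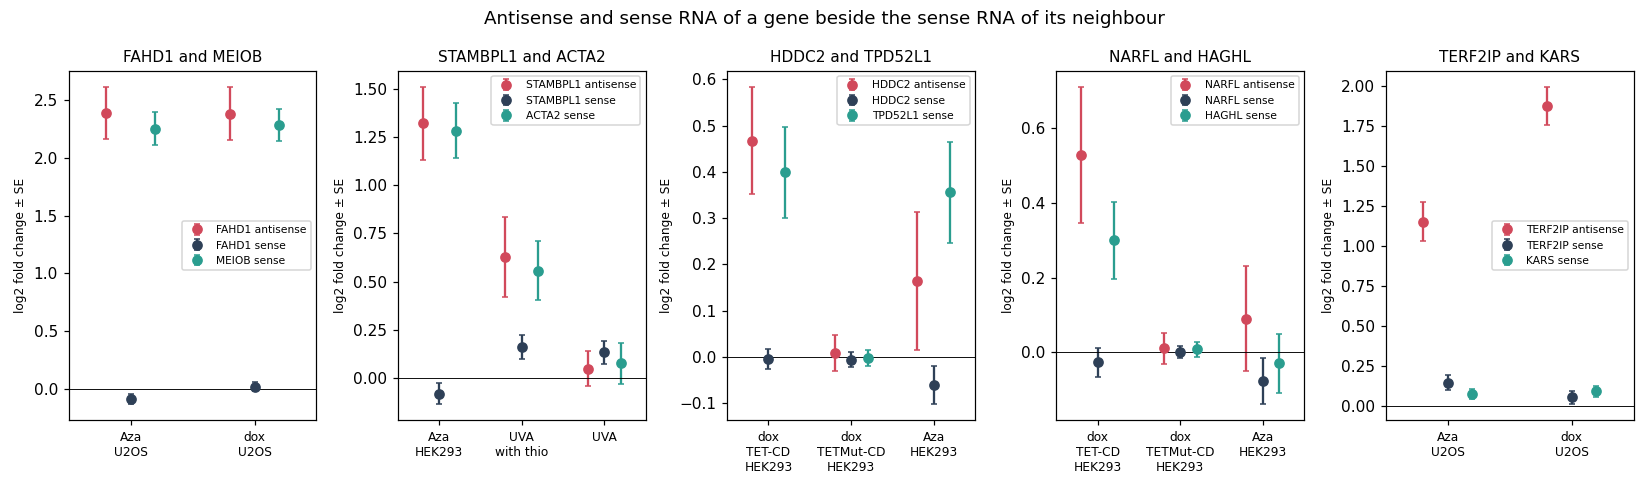
Log2 fold change (vertical axis; points, with standard errors as bars) of a gene's antisense RNA, its sense RNA and the sense RNA of its neighbour, in the comparisons named under each panel. Antisense and neighbour values lie close together for FAHD1 with MEIOB and STAMBPL1 with ACTA2, while the KARS points stay near 0 beside high TERF2IP antisense.

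The methyl-binding protein experiment has no antisense table here, and its libraries played no part in choosing the genes, so the authors' deposited adjusted p can be used for sense RNA. With Aza, all values of the 7 genes there were under 0.2 on log2 in either direction, and the number called ran from 1 in the parental line to 5 in G37. In G16, TERF2IP rose by 0.14 ± 0.04 (adjusted p = 0.0035), while FAHD1 fell by 0.15 ± 0.06 (adjusted p = 0.015) and NARFL fell by 0.14 ± 0.05 (adjusted p = 0.018), per the authors' deposited table; background was 11.6% higher and 12% lower. In G37, HIF1A rose by 0.12 ± 0.05 (adjusted p = 0.024) per the authors' deposited table, where 12.1% of all genes rose. FAHD1 fell by 0.15 ± 0.06, STAMBPL1 by 0.14 ± 0.05, NARFL by 0.12 ± 0.05 and HDDC2 by 0.12 ± 0.04 in G37 in the authors' deposited table, 4 of 7 lower where 12.6% of all genes were lower. In the parental line TERF2IP rose by 0.11 ± 0.04 (adjusted p = 0.018) per the authors' deposited table and was the only call, 1 of 7 higher and 0 lower, where 10.4% of all genes were higher and 12.3% lower. The lines were not tested against each other.

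With doxycycline 0 of 7 genes were called in G16, in G37 and in the parental line by adjusted p as given in the authors' deposited tables, which carry DESeq2's column names; of all genes 0.364%, 0.263% and 1.3% were called in either direction. At an unadjusted p below 0.05 the counts were 1, 0 and 0, the 1 being PROSER2 in G16 (-0.07 ± 0.07, p = 0.014, adjusted p = 0.24, in the authors' deposited table). The share of all genes at that unadjusted threshold was not counted, so nothing is read from these counts. TET1 was higher by 1.97 ± 0.07, 2.46 ± 0.07 and 2.52 ± 0.07 in the same comparisons, per the authors' deposited tables. In G37 the deposited values of the 7 genes were shrunken to 0.00 with standard errors of 0.0016, so they carry no size.

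Among the neighbours, ACTA2 and TPD52L1 rose in this experiment. ACTA2 rose with Aza in all 3 lines in the authors' deposited tables, by 0.88 ± 0.15 in G16 (adjusted p = 2e-08), 0.94 ± 0.15 in G37 (adjusted p = 4.5e-09) and 0.95 ± 0.16 in the parental line (adjusted p = 5.9e-09). TPD52L1 rose with Aza by 0.31 ± 0.07, 0.38 ± 0.07 and 0.37 ± 0.08 in the same order of lines (adjusted p = 4.1e-05, 2.8e-07 and 5.6e-06) in the authors' deposited tables. With these, 2 of 9 neighbours rose in each line, beside 10.4% to 12.1% of all genes, and 1 fell, HAGH in G37 at -0.15 ± 0.05 (adjusted p = 0.0065), in the authors' deposited table. With doxycycline TPD52L1 rose by 0.30 ± 0.08 in G37 (adjusted p = 0.0015) and by 0.26 ± 0.08 in the parental line (adjusted p = 0.013), and had 0.12 ± 0.10 in G16 (adjusted p = 0.18), in the authors' deposited tables. It was the 1 of 9 neighbours called in G37 and in the parental line, where 0.263% and 1.3% of all genes were called in either direction. That rise in the parental line stands in libraries whose genotype label names the mutant construct, while TPD52L1 stood at -0.00 ± 0.02 in the TETMut-CD line of the other experiment. The value in the TETMut-CD line is strongly shrunken and carries no size. HAGHL with doxycycline had 0.02 ± 0.04 in the parental line (adjusted p = 0.14), and MEIOB had a mean level of 4.65, in the authors' deposited tables. KARS lay between -0.08 and 0.02 in all 6 comparisons of the authors' deposited tables, with no call.

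**Figure D4:**
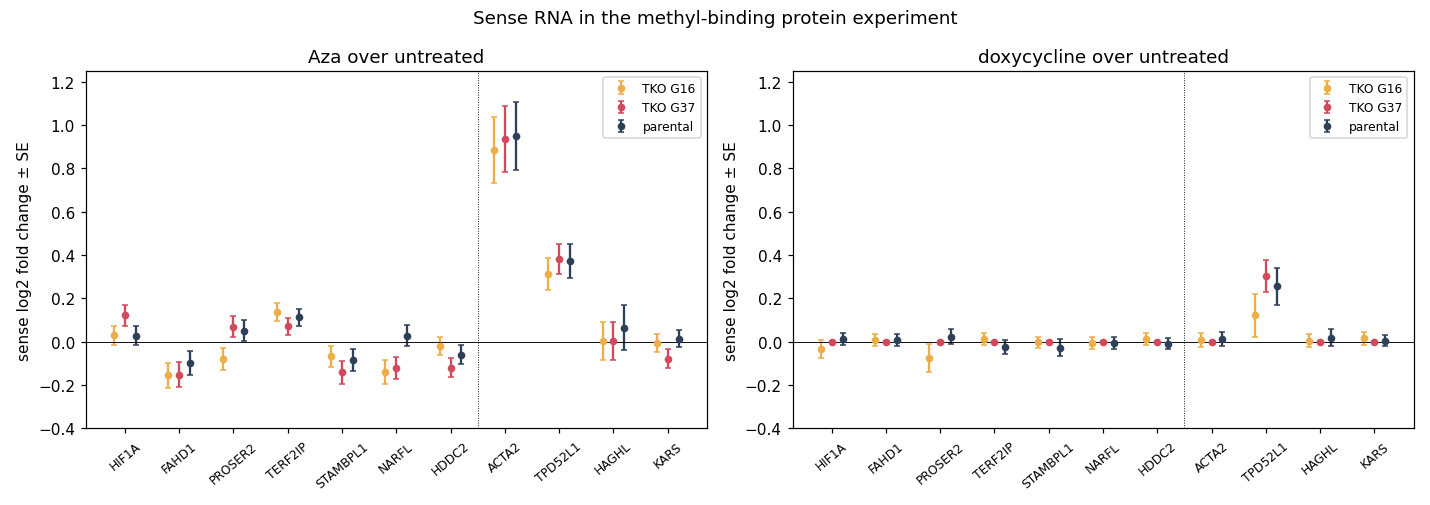
Sense log2 fold change (vertical axis; points, with standard errors as bars) of the 7 genes, left of the dotted line, and of 4 neighbours, right of it, with Aza (left panel) and doxycycline (right panel) over untreated cells of the lines G16, G37 and parental. ACTA2 and TPD52L1 stand above 0 with Aza in all 3 lines, while the 7 genes lie between -0.15 and 0.14.

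Genes of the pathways in which the 7 genes act were described in sense RNA. Of 25 HIF-1 target genes other than the 7, 3 rose and 5 fell with Aza in U2OS (10.8% and 12.9% of all genes), with a list median of -0.01 beside 0.00 over all genes. ADM, the vasodilator adrenomedullin, rose by 0.57 ± 0.08 (adjusted p = 1.2e-12), ALDOC, a glycolytic aldolase, by 0.49 ± 0.09 and SLC2A3, a glucose transporter, by 0.33 ± 0.04, while NDRG1, a stress-responsive gene, fell by 0.20 ± 0.04, in the authors' deposited table. With doxycycline in U2OS 2 of 24 tested rose and 3 fell (5.8% and 6.43% of all genes; medians -0.01 and -0.00), among them SLC2A3 at 0.26 ± 0.04 and ADM at 0.24 ± 0.08 in the authors' deposited table. With Aza in HEK293 3 of 24 rose and 4 fell (7.17% and 7.14% of all genes; medians -0.01 and 0.00), with ALDOC at 0.76 ± 0.11 and ADM at -0.60 ± 0.09 in the authors' deposited table, so that ADM had opposite signs in the U2OS and HEK293 tables. In TET-CD HEK293 0 rose and 1 fell, NDRG1 at -0.09 ± 0.03 in the authors' deposited table (0.656% and 0.228% of all genes; medians -0.00 and -0.00).

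Of 11 regulators of the HIF pathway 0 rose and 3 fell with Aza in U2OS (10.8% and 12.9% of all genes; medians -0.01 and 0.00): the coactivator acetyltransferases CREBBP (-0.29 ± 0.04, adjusted p = 6.8e-11) and EP300 (-0.11 ± 0.04), and the prolyl hydroxylase EGLN2 (-0.12 ± 0.05), in the authors' deposited table. CREBBP also fell with doxycycline in U2OS, by 0.14 ± 0.04 (adjusted p = 0.0031) per the authors' deposited table, the 1 call of that list there (6.43% of all genes were lower; list median -0.01). With Aza in HEK293 2 rose and 0 fell (7.17% and 7.14% of all genes; medians 0.03 and 0.00): EPAS1, the HIF-2 alpha subunit, at 0.48 ± 0.16, and HIF3A, whose mean level was 2.14 and whose fold change of 0.02 ± 0.10 is smaller than its error, in the authors' deposited table. None of 10 regulators tested was called in TET-CD HEK293 (0.656% of all genes were higher and 0.228% lower; list median -0.01).

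Of 5 shelterin genes other than TERF2IP, 0 were called in either U2OS comparison (10.8% of all genes higher and 12.9% lower with Aza, 5.8% and 6.43% with doxycycline; list median 0.03 in both), and ACD, which recruits telomerase, rose by 0.20 ± 0.11 with Aza in HEK293 (adjusted p = 0.048) per the authors' deposited table (7.17% of all genes were higher; list median -0.00). Of 8 genes of cytosolic iron-sulfur assembly, FAM96B, a targeting subunit, rose by 0.11 ± 0.05 with Aza in U2OS. NDOR1, an electron-transfer reductase, fell there by 0.17 ± 0.05, in the authors' deposited table (10.8% of all genes higher and 12.9% lower, list median -0.00). With doxycycline in U2OS 0 of the 8 were called (5.8% of all genes higher and 6.43% lower, list median 0.02). MMS19, a targeting factor, fell by 0.16 ± 0.04 with Aza in HEK293, in the authors' deposited table (7.14% of all genes lower, list median -0.06). Neither list had a call in TET-CD HEK293. In the methyl-binding protein experiment Aza gave 12, 11 and 11 calls among 24 HIF-1 targets in the G16, G37 and parental lines: 5, 3 and 4 higher (medians -0.00, -0.07 and -0.02) and 7, 8 and 7 lower. Of all genes 11.6%, 12.1% and 10.4% were higher and 12%, 12.6% and 12.3% lower in the same order of lines. Among 11 regulators the calls were 2, 4 and 1 higher and 0, 1 and 1 lower, set against those same shares of all genes. The largest value among these calls was HIF3A in G37, at 2.85 ± 0.84 (adjusted p = 0.00086) in the authors' deposited table. Its mean level there was low, at 7.06. Of the 5 shelterin genes, ACD rose by 0.16 ± 0.07 in G37, and ACD by 0.28 ± 0.07 and TINF2, the hub that joins shelterin subunits, by 0.19 ± 0.07 in the parental line, in the authors' deposited tables, with 0 calls in G16. Of the iron-sulfur assembly genes, MMS19 fell in G16, G37 and the parental line, by 0.18 ± 0.03, 0.11 ± 0.03 and 0.10 ± 0.03, and NDOR1 fell by 0.18 ± 0.07 in G16, in the authors' deposited tables.

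The genes whose antisense profile over the 10 comparisons was most like that of each of the 7 were sought among 2588 genes with a mean antisense level of at least 50 in every table. HIF1A, FAHD1, PROSER2 and TERF2IP fell below that level in HEK293, as did other genes with little antisense RNA there. None of these could be listed, so the likeness of those 4 genes to one another was not examined. The 10 points share untreated libraries and fall into few experiments, so Pearson's r is a description. TSPAN16 was most like HIF1A (r = 0.99), with antisense at 0.76 ± 0.15 with Aza in U2OS, followed by MACROD2 (r = 0.98, 0.45 ± 0.09), per the authors' deposited tables. TSPAN16 also headed the list for PROSER2 (r = 0.98), followed by CMC2 (r = 0.98). NT5C2 (r = 0.98) and CMC2 (r = 0.97) were most like FAHD1, and FHL2 (r = 0.99) and NT5C2 (r = 0.98) most like TERF2IP; NT5C2 antisense had 0.52 ± 0.09 and FHL2 0.51 ± 0.16 with doxycycline in U2OS in the authors' deposited table. For NARFL and HDDC2 it was VPS9D1 (r = 0.98 with each), at 2.42 ± 0.16 in TET-CD HEK293 in the authors' deposited table, followed by each other (r = 0.94). STAMBPL1 had lower values, with TBC1D10B (r = 0.94), whose own largest antisense fold change was 0.07 ± 0.12, and NCOA6 (r = 0.93), at 0.79 ± 0.15 with Aza in HEK293, in the authors' deposited tables.

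The 11 nascent RNA tables hold no row named for any of the 7 genes or the 9 neighbours, so initiation and elongation at these genes were not analysed here.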

How the data were processed

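Values come from 26 total RNA tables, 10 of them antisense, each a comparison of 3 against 3 libraries. Libraries were made with a stranded, rRNA-depleted total RNA kit, per the labels' protocols. Per the submitters' processing notes the build was hg19, and Trim Galore 0.4.3, STAR 2.4.2, R 3.5.1 and DESeq2 1.22.1 were used, with no role stated. As signal, the authors deposited a mean normalized count over the libraries of an experiment, the same in all its tables. On a log2 scale, the authors deposited fold changes with standard errors, shrunken toward 0, under DESeq2's column names. Each p-value, raw and adjusted, is as deposited, and the adjusted one is blank for filtered genes. How antisense reads were assigned to genes, and the depth, are not given in the sources used here. The tables name their reference only as untreated; the UVA and thio tables share mean levels with the Aza table, so its untreated group was taken.

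Here 1 row per symbol was kept (the highest mean level; 70 sense rows were dropped) in pandas 2.3.3 under Python 3.11.15. A gene was called at a deposited adjusted p below 0.05. Implied group levels solve the mean level over equal groups and the fold changes, and inherit the shrinkage. The code was tested on simulated data. The planned fits to nascent RNA and to per-library values could not be made. The members and lists were chosen with earlier results of these data known. Named genes were the 7, their opposite-strand neighbours, up to 4 called genes per list and comparison by size of fold, and the 2 most alike antisense profiles. Alternatives were adjustment over all genes with no filter, centring on the median, and a threshold of 0.01.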

Additional observations from a re-analysis of the deposited data

How the results depend on the processing

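No paired analysis was possible because the tables hold comparisons and no value per sample, and likewise no library was left out. Adjusting the deposited p-values over all genes with no filter (for the neighbours an alternative chosen after seeing the data) changed no count of members or neighbours called in the methyl-binding protein experiment and no member's side of the threshold there. The same adjustment of the antisense tables, chosen after seeing the data, left 1 of 2 members called higher in TET-CD HEK293 (NARFL lost its call) and 0 of 1 with UVA and thio (STAMBPL1), while the counts in the other 8 antisense comparisons stayed the same. Centring fold changes on the median of all genes reversed no called value and moved none of the members' values by its standard error. A list threshold of 0.01 left 1 of 3 HIF regulators and 1 of 2 iron-sulfur assembly genes with Aza in U2OS; 1 of 2 regulators, 4 of 7 HIF-1 targets and 0 of 1 shelterin gene with Aza in HEK293; 0 of 1 HIF-1 target in TET-CD HEK293; 1 of 2 regulators and 1 of 2 iron-sulfur assembly genes with Aza in G16; and 2 of 5 regulators and 0 of 1 shelterin gene with Aza in G37. Of the HIF-1 targets it left 7 of 8 with Aza and 4 of 5 with doxycycline in U2OS. With Aza it left 8 of 12 in G16, 9 of 11 in G37 and 8 of 11 in the parental line. The remaining list counts stayed the same. The stricter threshold itself makes these counts smaller. Antisense mean levels of 2.61 to 26.2 for HIF1A, FAHD1, PROSER2 and TERF2IP are low in HEK293, and whether a change there was within reach was not tested, since depth is not given. The nascent RNA alternatives were not run.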
